A study of Homo sapiens with 1536 samples.

Results

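The compounds described here were 7 small molecules that act on chaperones, on the ubiquitin system or on the endoplasmic reticulum (ER): the HSP90 inhibitor NVPAUY922, the HSP70 inhibitor VER155008, the deubiquitinase inhibitor WP1130, the ubiquitin E1 inhibitor PYR41, the IRE1 inhibitors APY29 and STF083010, and BrefeldinA, which blocks transport between the ER and the Golgi. They were chosen by target out of 180 compounds and not by response, and they filled 56 of the 1536 wells of the screen. Each well held a pool of 5 breast cancer cell lines: ZR-75-1, an estrogen receptor-positive line, SKBR3, an HER2-amplified line, and the triple-negative lines BT-20, HCC-38 and MDA-MB-231. Each line carried doxycycline-inducible Cas9 and 12 sgRNAs, and all wells, controls included, came from cells kept in 100 ng/mL doxycycline for 7 days before treatment. Wells then received DMSO (96 wells) or a compound at 4 doses in 2 replicate wells for 72 h. NVPAUY922 was given at 1, 10, 100 and 1000 nM and the other 6 compounds at 10, 100, 1000 and 10000 nM.

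The heat shock response is driven mainly by the transcription factor HSF1, with HSF2 as a related factor. It raises chaperones such as HSP70 when unfolded proteins build up in the cytosol, and inhibitors of HSP90 are known to release HSF1 from its repressed state. Unfolded proteins in the ER are sensed by IRE1 (gene ERN1), whose RNase splices XBP1 mRNA, by ATF6, which is cleaved in the Golgi, and by PERK, which acts through ATF4. APY29 binds the kinase pocket of IRE1, and STF083010 inhibits its RNase. The E1 enzyme starts ubiquitin conjugation, and deubiquitinases remove ubiquitin.

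Each targeted gene was represented by 1 sgRNA, whereas sgNT stood for 5 non-targeting guides counted together. The guides of 5 of the 6 genes followed here, and the KEAP1 guide that appears in a result, are shown because every genetic comparison rests on a single guide of 20 nt. They are written 5′ to 3′ as designed, and their positions in the genome were not analysed here.
sgHSF2: acactaacgagttcatcacc
sgERN1: tctccctcaatggtacacga
sgXBP1: cctcccaggggaatgaagtg
sgATF4: agatgaccttctgaccacgt
sgATF6: tgagccctgcaaatcaaagg
sgKEAP1: cagcaccgttcatgacgtgg

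The readout was the relative cell number, the number of cells interpolated from barcode reads in percent of DMSO. For a whole line it was summarised as the median of its sgRNAs in a well. In the DMSO wells this median had a mean between 100.006 (SKBR3) and 101.3 (HCC-38), with an SD between 10.6 (HCC-38) and 13.7 (ZR-75-1) over 96 wells. Wells of the 7 compounds held 50292 to 1055436 reads with a median of 497600, and the 5 spike-in standards took 5.09% to 57.4% of them. ZR-75-1 sgHSF1 and sgKEAP1, the pairs of lowest abundance that the study also set aside, were left out. The DMSO wells of Plate 6 held the fewest reads, 155067 to 265215. Leaving them out gave the same number of combinations below DMSO, 52 (an alternative chosen after seeing the data). At dose level 3 (100 nM for NVPAUY922, 1000 nM for the others), replicate 2 held fewer reads than replicate 1 for all 7 compounds. BrefeldinA, for example, had 168167 against 374070, and this alternative kept these compound wells. In 6 wells, 2 of NVPAUY922 and 4 of APY29, reads on pairs of barcodes that no cell line carried made up 0.985% to 2.40%, above the highest DMSO well (0.924%), and their part in the results was not tested.

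STF083010 stood apart. In MDA-MB-231 its sgNT cells read 256.8% to 323.3% of DMSO and its sgSLC35F2 cells 155.6% to 212.6% in the 8 wells, whereas the median of the sgRNAs stayed between 78.4% and 116.9%. The study excluded this compound for its very high AUC and pointed to its well position. Its results are therefore kept apart below, and counts are given with and without it. The reference for a line was the median of its sgRNAs.

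The first comparison asked at which dose each compound lowered each line below DMSO. Of 140 combinations of compound, dose and line, 52 were below DMSO at an adjusted p under 0.05 (limma, adjusted over all 3480 combinations), against 32.2% of combinations over all compounds. Leaving out STF083010 removed 20 tests and no call. None was above DMSO, where the screen as a whole had 1.15%, and none was above at an unadjusted p under 0.05 either. The calls fell to BrefeldinA (15 of 20), NVPAUY922 (14 of 20), APY29 (14 of 20), WP1130 (5 of 20) and VER155008 (4 of 20), with 0 for PYR41 and STF083010. The SEs of these log2 differences came from an error shared by all compound and DMSO wells of a line. Its SD ran from 0.156 (BT-20) to 0.215 (ZR-75-1) on the log2 scale. They do not measure the spread of the replicate wells of a single combination.

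**Figure D1:**
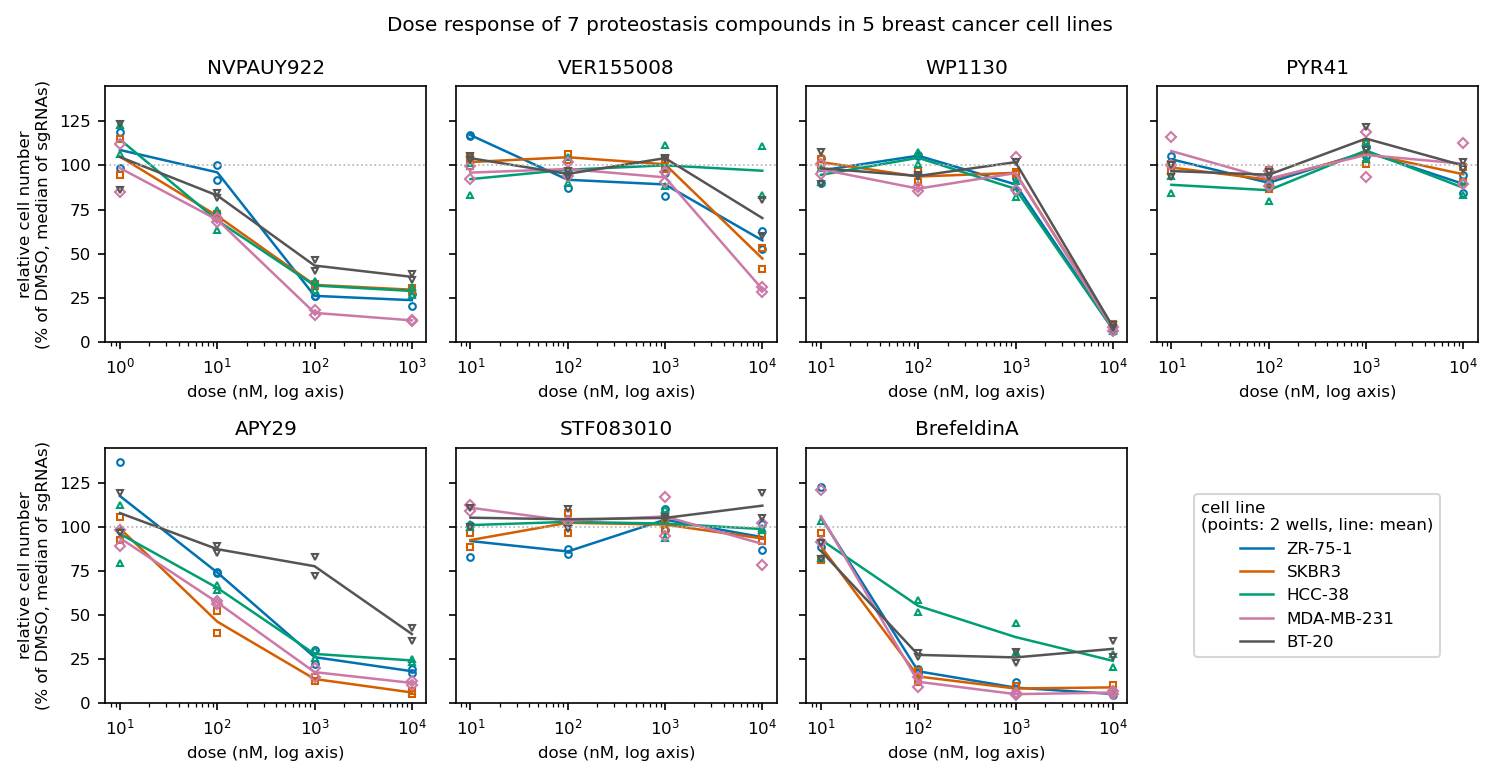
Relative cell number (percent of DMSO, median of the sgRNAs) against dose in nM on a log axis for the 7 compounds, with open points for the 2 replicate wells and lines for their mean in each of 5 cell lines. NVPAUY922, APY29 and BrefeldinA fell over several doses, WP1130 and VER155008 at 10000 nM only, and PYR41 and STF083010 stayed near 100.

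NVPAUY922 lowered all 5 lines at 100 nM and at 1000 nM. At 10 nM the wells read 70.4% and 68.03% in MDA-MB-231, 72.4% and 70.3% in SKBR3, 74.5% and 63.2% in HCC-38, and 84.2% and 81.7% in BT-20. These 4 lines were below DMSO (adjusted p from 1.15e-05 in HCC-38 to 0.0401 in BT-20), whereas ZR-75-1, with 100.4% and 91.8%, did not pass (log2 difference -0.06 ± 0.15 SE, adjusted p = 0.845). At 100 nM MDA-MB-231 fell furthest, to 17.8% and 15.1% (log2 -2.61 ± 0.14, adjusted p = 1.97e-66), and BT-20 least, to 40.3% and 46.2% (log2 -1.22 ± 0.11, adjusted p = 2.32e-25). Over the 10 readings the range was 15.1% to 46.2% at 100 nM and 11.8% to 38.6% at 1000 nM, so that little of the fall lay above 100 nM. Below it the steps differed by line. The mean of HCC-38 was 114.7% at 1 nM, 68.8% at 10 nM and 31.9% at 100 nM, and that of ZR-75-1 was 108.7%, 96.1% and 26.1%.

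Ganetespib, another HSP90 inhibitor of the screen, was given at the same 4 doses and so allowed a comparison at matched doses. At 10 nM it read 86.2% to 103.6% over lines and wells and passed the test in 0 of 5 lines, and at 100 nM it read 12.0% to 42.1% and passed in 5 of 5. Of the 20 differences between NVPAUY922 and Ganetespib, adjusted over these 20, 1 passed. HCC-38 at 10 nM had a mean of 68.8% with NVPAUY922 against 97.9% with Ganetespib, a fold of 0.701 (95% interval 0.560 to 0.877, adjusted p = 0.0388). This call was lost when either replicate was left out. The other 4 lines at 10 nM had folds of 0.717 (MDA-MB-231, interval 0.552 to 0.930) to 1.03 (ZR-75-1, interval 0.772 to 1.39). At 100 and 1000 nM no difference passed. HCC-38 came nearest there, with folds of 1.32 and 1.35 (adjusted p = 0.0794 for both), and the intervals over all lines reached from 0.675 to 1.69.

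VER155008 had calls at its highest dose only. At 10000 nM MDA-MB-231 read 28.4% and 31.3%, SKBR3 41.1% and 53.3%, ZR-75-1 52.4% and 62.7%, and BT-20 59.9% and 80.4%. All 4 were below DMSO, from log2 -1.75 ± 0.14 in MDA-MB-231 (adjusted p = 2.33e-33) to -0.53 ± 0.11 in BT-20 (adjusted p = 7.89e-06). HCC-38 read 83.05% and 110.9%, on both sides of 100, and did not pass (log2 -0.07 ± 0.12, adjusted p = 0.738). At 10 to 1000 nM no line passed, with readings of 82.6% to 117.4%. With sgNT alone in place of the median, 2 VER155008 combinations were below DMSO.

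The ubiquitin inhibitors differed from each other. WP1130 left all lines at 82.1% to 107.8% up to 1000 nM and reduced all 5 to 5.94% to 10.2% at 10000 nM. The log2 differences at that dose ran from -3.83 ± 0.12 in HCC-38 (adjusted p = 9.86e-148) to -3.55 ± 0.11 in BT-20, and the lines lay close together. These were also the thinnest wells, with 50292 reads in replicate 2, a median of 261.5 reads per line and sgRNA, and 57.4% of reads from the standards. The SKBR3 wells, for example, read 10.2% and 6.16%. The SEs at this dose rest on the error shared by all wells of a line and may be too small for so few cells. PYR41 had no call in any line at any dose, with readings of 80.1% to 121.8% over 40 values and a smallest adjusted p of 0.126 (1 combination at an unadjusted p under 0.05). With sgNT alone in place of the median, 1 PYR41 combination was below DMSO.

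The IRE1 inhibitors differed as well. APY29 was without a call at 10 nM (79.7% to 136.8%), where the wells of ZR-75-1 differed most, 98.2% and 136.8%. Every line read higher in replicate 2, the well with 2.40% of reads on pairs of barcodes that no cell line carried. The part of these reads was not tested. At 100 nM APY29 lowered 4 lines, most of all SKBR3, with 40.1% and 52.5% (log2 -1.11 ± 0.14, adjusted p = 3.29e-14), and not BT-20, with 85.3% and 89.5% (adjusted p = 0.176). At 10000 nM SKBR3 read 7.0% and 5.4%, MDA-MB-231 12.7% and 10.5%, ZR-75-1 19.5% and 16.99%, HCC-38 25.3% and 23.4%, and BT-20 42.996% and 35.6%. The 5 lines did not overlap with each other in these wells. STF083010 had no call in any line at any dose, with readings of 78.4% to 119.02% and a smallest adjusted p of 0.340.

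BrefeldinA gave 0 calls at 10 nM (81.3% to 122.6%) and 5 of 5 from 100 nM up. At 100 nM MDA-MB-231 fell to 15.0% and 9.5% (log2 -3.07 ± 0.14, adjusted p = 4.19e-86), SKBR3 to 18.2% and 12.3%, and ZR-75-1 to 19.4% and 17.01%. BT-20 read 26.2% and 28.7% and HCC-38 51.7% and 58.8% (log2 -0.87 ± 0.12, adjusted p = 1.82e-12). From there HCC-38 went on falling to 20.5% and 27.8% at 10000 nM, where it overlapped with BT-20. BT-20 stayed at 26.5% and 35.2%. The other 3 lines also read lower than at 100 nM, between 4.62% and 10.3%.

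The 7 compounds were then compared with each other at matched doses, 21 pairs at 10, 100 and 1000 nM and 15 pairs at 10000 nM in 5 lines, with adjustment over the 390 tests. Of these, 56.2% passed, 17 differences (16.2% of tests) at 10 nM, 67 (63.8%) at 100 nM, 72 (68.6%) at 1000 nM and 63 of 75 at 10000 nM. Without STF083010, 61.8% passed. The share over pairs of all compounds was not computed, so these counts cannot be set against the screen as a whole. All 17 differences at 10 nM were between NVPAUY922 and another compound, NVPAUY922 being the lower. However, 10 nM was dose level 2 of NVPAUY922 and dose level 1 of the others, and the levels differed likewise at 100 and 1000 nM. In the DMSO labels the plate number changed with the dose level. The part of plates in the NVPAUY922 differences was not tested.

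At 100 nM BrefeldinA was below NVPAUY922 in 4 lines and above it in HCC-38. There NVPAUY922 had a mean of 31.9% and BrefeldinA of 55.3% (fold 0.577, interval 0.461 to 0.722, adjusted p = 4.03e-06). In SKBR3 the order was the other way, 32.3% against 15.2% (fold 2.16, interval 1.66 to 2.82, adjusted p = 4.54e-08).

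The IRE1 inhibitors, one directed at the kinase pocket and the other at the RNase, differed in 13 of 20 tests, with APY29 the lower in each. At 10 nM none of 5 passed, and at 10000 nM the fold of APY29 over STF083010 ran from 0.0656 in SKBR3 (interval 0.0503 to 0.0856, adjusted p = 8.66e-72) to 0.350 in BT-20 (interval 0.283 to 0.432, adjusted p = 9.93e-21). This comparison cannot be made without STF083010, whose wells stood apart. WP1130 was below PYR41 in 5 of 5 lines at 10000 nM (fold 0.0742 to 0.0857) and in none at lower doses. PYR41 and STF083010, neither of which had a call against DMSO, had 0 of 20 differences, with folds of 0.834 to 1.13 and intervals reaching from 0.666 to 1.51.

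At 10000 nM WP1130 and BrefeldinA differed in 2 of 5 lines. BT-20 kept 8.62% with WP1130 and 30.9% with BrefeldinA (fold 0.280, interval 0.226 to 0.346, adjusted p = 3.83e-29), and HCC-38 kept 7.15% and 24.1% (fold 0.297, interval 0.237 to 0.371). In the other 3 lines the means of both compounds were 5.33% to 9.06%, and the intervals of the fold reached from 0.676 to 1.79.

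To set the lines against each other, the dose series was summed to an area under the curve (AUC, 300 without any effect), separately in each replicate. NVPAUY922 AUCs were not set against those of the other compounds because its doses were 10 times lower. Each line was compared with the mean of the other 4 (limma, adjusted over all compounds with deposited values and 5 lines). Among the 35 combinations, 6 were below the other lines, against 11.4% over all compounds, and 2 above, against 10.2%. Line values of the same replicate came from the same wells, and with the replicate as a block 7 were below and 6 above.

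**Figure D2:**
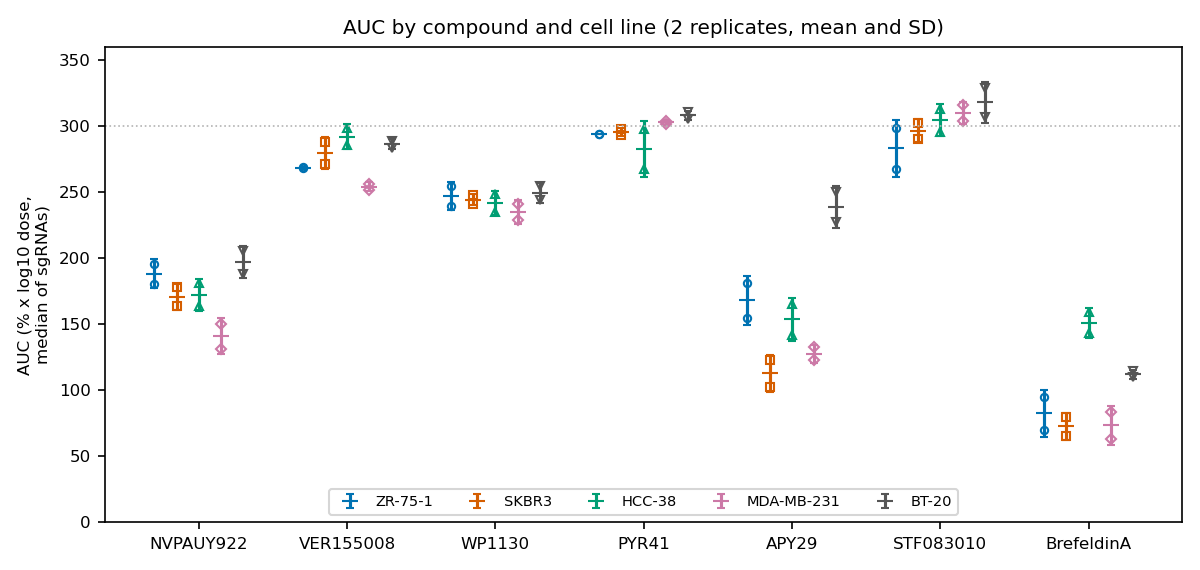
AUC of the median of the sgRNAs (percent times log10 dose units, 300 without an effect, dotted line) for each compound and cell line, with open points for the 2 replicates, dashes for their mean and bars for the SD. BT-20 stood above the other lines under APY29 and HCC-38 under BrefeldinA, while the lines lay together under WP1130.

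Under APY29, 3 lines stood apart. BT-20 had AUCs of 227.3 and 250.1, both above all readings of the other lines, and a mean of 238.7 against 140.6 (difference 98.1 ± 10.6 SE, adjusted p = 0.000405). SKBR3, with 102.9 and 122.7, was below the others (difference -59.3 ± 10.6, adjusted p = 0.00540), as was MDA-MB-231, with 122.6 and 132.5 (difference -40.8 ± 10.6, adjusted p = 0.0240).

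Under BrefeldinA it was HCC-38 that stood above, with 159.3 and 143.3 and a mean of 151.3 against 85.2 (difference 66.04 ± 9.43, adjusted p = 0.00196). SKBR3 (79.99 and 65.4) and MDA-MB-231 (83.98 and 63.2) were below the others, by differences of -32.2 ± 9.43 (adjusted p = 0.0384) and -31.1 ± 9.43 (adjusted p = 0.0451). ZR-75-1 (95.2 and 69.8) overlapped with both and passed only with the replicate block (adjusted p = 0.0207, against 0.173 without), as did BT-20 (114.5 and 109.9, adjusted p = 0.0380 against 0.244).

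MDA-MB-231 was also the lowest line under the chaperone inhibitors. With NVPAUY922 its AUCs were 150.5 and 131.4, a mean of 140.98 against 182.2 (difference -41.2 ± 9.08, adjusted p = 0.0123), and with VER155008 they were 256.6 and 251.6, a mean of 254.1 against 281.7 (difference -27.6 ± 7.18, adjusted p = 0.0240). BT-20 was the highest line under NVPAUY922 (205.6 and 188.5), at an adjusted p of 0.0521 without and 0.00195 with the block, and ZR-75-1 followed (196.05 and 180.6, 0.203 without and 0.0151 with it). HCC-38 was the highest under VER155008 (285.6 and 298.8, 0.0807 without and 0.0250 with the block).

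WP1130 gave mean AUCs of 235.1 to 249.3 with no line apart from the others (smallest adjusted p 0.379), and neither PYR41 (282.6 to 308.3) nor STF083010 (283.3 to 318.1) had a line that passed. With sgNT alone in place of the median of the sgRNAs, none of the 6 differences below the other lines passed (adjusted p from 0.171 for APY29 in SKBR3 to 0.862 for VER155008 in MDA-MB-231), although all 6 kept their direction. HCC-38 under BrefeldinA did not pass either (adjusted p = 0.106), while BT-20 under APY29 did (difference 110.96 ± 21.5, adjusted p = 0.0206). The 3 differences below the others that passed with sgNT were all STF083010, whose sgNT cells in MDA-MB-231 stood apart.

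The sgRNA comparison asked whether cells carrying a guide against HSF1, HSF2, ERN1, XBP1, ATF6 or ATF4 responded differently from the other cells of their line. The loss of the proteins was not measured in these wells. For each line and compound, the AUC of an sgRNA was set against the median AUC of the sgRNAs in the same wells (limma, adjusted over 10092 tests of all compounds and sgRNAs). Of 29 tests of the 6 sgRNAs for each of the 7 compounds, 1 was lower than the median, against 0.149% of all tests, and 0 were higher, against 0.773%. At an unadjusted p under 0.05, 5 were lower and 11 higher, against 9 lower and 9 higher in as many tests of the other 6 sgRNAs. Without STF083010 the count of adjusted calls for the 6 sgRNAs followed was also 1.

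**Figure D3:**
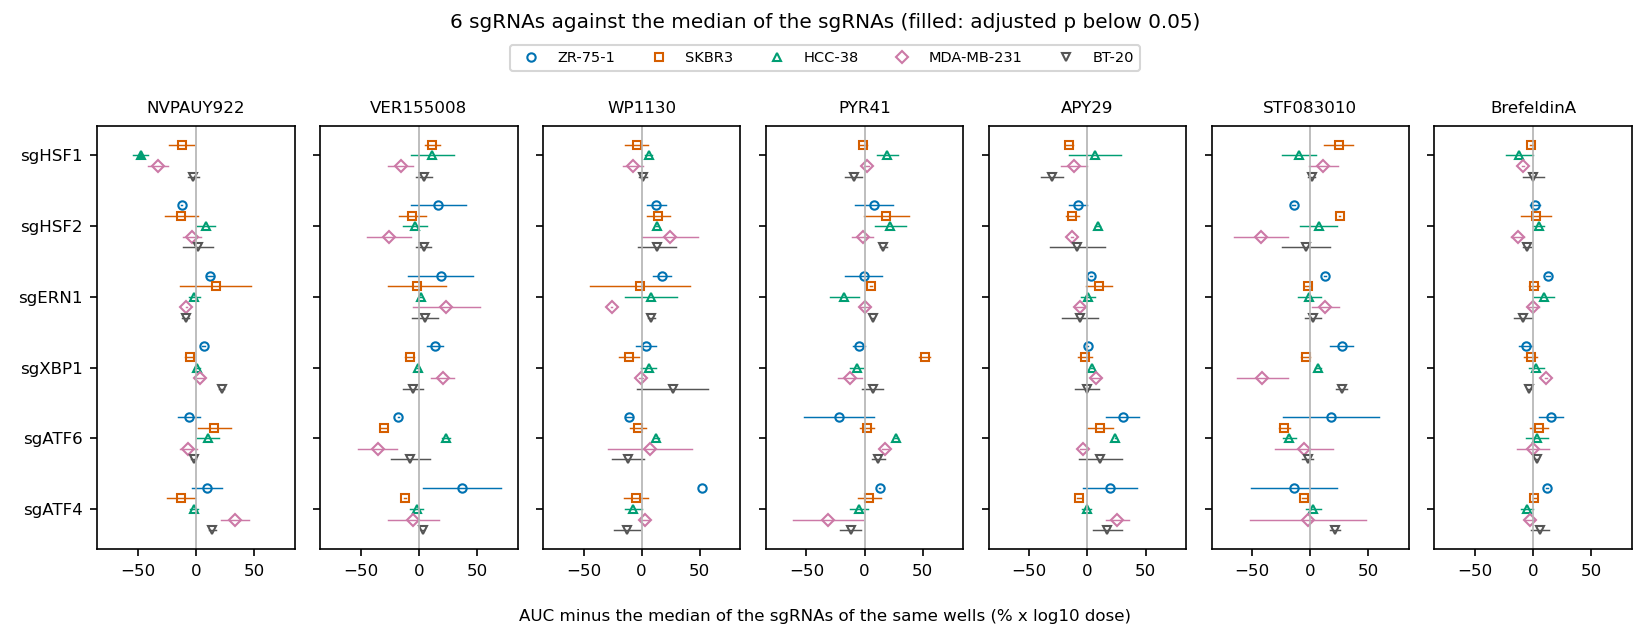
AUC minus the median AUC of the sgRNAs in the same wells (percent times log10 dose units) for 6 sgRNAs, 7 compounds and 5 cell lines, with symbols for the mean and thin lines joining the 2 replicates. The filled symbol, sgHSF1 in HCC-38 under NVPAUY922, is the 1 difference that passed the test, and ZR-75-1 sgHSF1 was left out.

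The call was sgHSF1 in HCC-38 under the HSP90 inhibitor NVPAUY922. The sgHSF1 cells had AUCs of 138.4 and 112.99, where the median of the sgRNAs was 179.3 and 166.7, a difference of -47.3 ± 9.08 (adjusted p = 0.0203). The sgHSF1 cells were lower by differences of -40.96 in replicate 1 and -53.7 in replicate 2, and of all compounds with deposited values NVPAUY922 gave the lowest value for this line and sgRNA. It was 1 of 2 compounds that passed as lower there, the other being PAC1 (difference -41.1 ± 8.09, adjusted p = 0.0246, singled out after its value was seen), and 8 passed as higher. The median over all compounds for sgHSF1 in HCC-38 was 5.02.

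By dose, HCC-38 sgHSF1 cells read 104.4% and 76.8% at 1 nM, where the median of the sgRNAs read 123.1% and 106.3%. At 10 nM they read 57.3% and 49.6% against 74.5% and 63.2%, at 100 nM 18.1% and 18.9% against 29.5% and 34.3%, and at 1000 nM 21.6% and 12.3% against 31.05% and 26.6%. The sgHSF1 cells were thus below the median in all 8 wells, and the mean ratio to it was 0.783 at 1 nM, 0.776 at 10 nM, 0.581 at 100 nM and 0.566 at 1000 nM. These readings rest on 3846 and 4285 reads at 1 nM and on fewer at each higher dose.

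**Figure D4:**
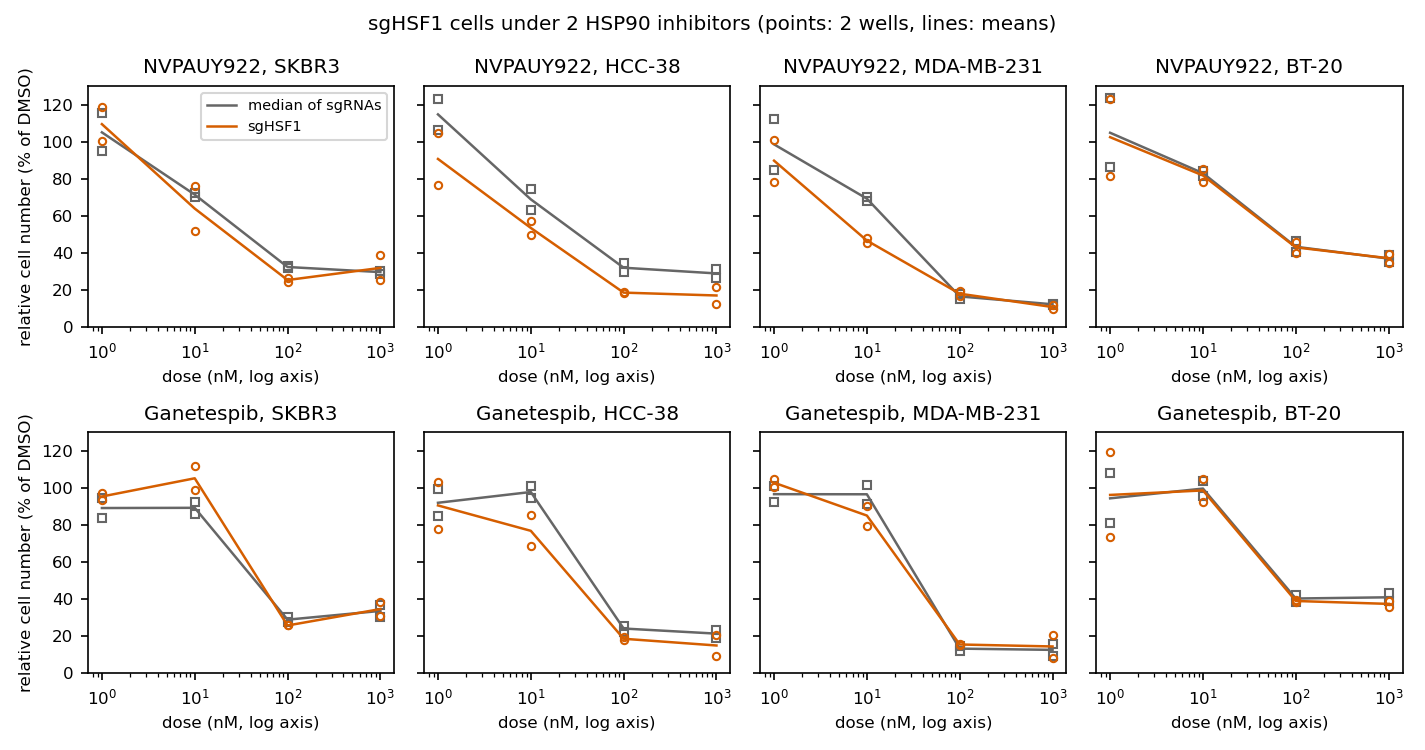
Relative cell number (percent of DMSO) of sgHSF1 cells and of the median of the sgRNAs against dose in nM on a log axis in 4 cell lines under NVPAUY922 (top) and Ganetespib (bottom), with points for the 2 wells and lines for their mean. In HCC-38 the sgHSF1 cells lay below the median at every dose of NVPAUY922, and in BT-20 they ran along it.

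In the other lines under NVPAUY922, sgHSF1 differed from the median by -32.6 ± 11.1 in MDA-MB-231 (adjusted p = 0.278), -12.2 ± 14.8 in SKBR3 (adjusted p = 0.951) and -2.08 ± 8.34 in BT-20 (adjusted p = 0.999). In MDA-MB-231 the gap was widest at 10 nM, 45.1% and 48.1% for sgHSF1 against 70.4% and 68.03% for the median, and at 100 nM the wells overlapped (16.6% and 19.2% against 17.8% and 15.1%). Whether HCC-38 differed from the other lines was not tested. Under Ganetespib, HCC-38 sgHSF1 had AUCs of 137.5 and 159.5 and differed from the median by -32.4 ± 8.13 (adjusted p = 0.0859), the fifth lowest of all compounds. The differences under Ganetespib in the other 3 lines were -6.27 in MDA-MB-231, 13.1 in SKBR3 and -1.61 in BT-20.

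The call for HCC-38 sgHSF1 depended on the reference, the measure and the error. It passed in 6 of 12 alternatives, among them edgeR on the read counts (log2 -0.73, adjusted p = 1.02e-09), DESeq2 (adjusted p = 1.44e-15) and mean log2 (adjusted p = 0.000182). The 6 include settings that could hardly move it. The study's exclusion criteria and the ZR-75-1 pairs kept left the difference at -47.3, and leaving out pairs under 50 reads left the edgeR value as it was. Such settings are also counted for the other sgRNAs. The call for HCC-38 sgHSF1 did not pass in the other 6. Among them were sgNT as reference (difference -44.3, adjusted p = 0.139), the highest dose only (difference -11.9, adjusted p = 0.122), an error estimated for each sgRNA on its own (adjusted p = 0.622) and the fit without the replicate block (adjusted p = 0.257). The highest adjusted p of the 12 was 0.964, from the methods' t-test against sgNT after adjustment.

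HSF2, the second heat shock factor, gave NVPAUY922 differences of -12.5 to 8.49 over 5 lines. The ER sensors and factors were likewise without a call under NVPAUY922. The largest of these differences was sgATF4 in MDA-MB-231, with AUCs of 205.5 and 156.9 against medians of 159.5 and 135.1 (difference 33.9 ± 11.1, adjusted p = 0.257). As a mean log2 difference over the doses it was 0.51 and passed (adjusted p = 0.0162), and it passed in 4 of 12 alternatives, with a lowest adjusted p of 0.0162.

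Outside the 6 sgRNAs, sgKEAP1 in HCC-38 was above the median under NVPAUY922. KEAP1 is the adaptor that targets NRF2 for degradation. The AUCs were 250.99 and 188.7 against medians of 179.3 and 166.7, a difference of 46.8 ± 9.08 (adjusted p = 0.0223), and it came mostly from replicate 1 (71.7 against 21.9 in replicate 2). It passed in 6 of 12 alternatives. It was the 25th highest of all compounds for this line and sgRNA, where 26 compounds passed as higher and the median over all compounds was 12.1.

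Under the HSP70 inhibitor VER155008 none of 29 tests of the 6 sgRNAs passed. The sgHSF1 differences ran from -15.4 to 11.8. The widest were sgATF4 in ZR-75-1 (37.2 ± 18.9, adjusted p = 0.607), which came from replicate 1 (70.7 against 3.67), sgATF6 in MDA-MB-231 (-35.3 ± 15.3, adjusted p = 0.479) and sgATF6 in SKBR3 (-30.3 ± 16.9, adjusted p = 0.661).

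Under the deubiquitinase inhibitor WP1130 none of the 29 passed either. ZR-75-1 sgATF4 came nearest, with AUCs of 292.3 and 295.9 against medians of 240.2 and 243.9 and a difference of 52.05 ± 12.1 (adjusted p = 0.0711, and 0.0252 against sgNT, 1 of the 2 alternatives of 12 in which it passed). The sgHSF2 differences were between 12.7 and 24.7 in the 5 lines, with a smallest adjusted p of 0.721. MDA-MB-231 sgERN1 was at -25.8 ± 15.0 (adjusted p = 0.685). Among the other sgRNAs, ZR-75-1 sgSLC35F2, which targets a solute carrier, was below the median with AUCs of 195.8 and 141.1 (difference -73.6 ± 12.1, adjusted p = 0.0103). This line and sgRNA passed as lower with 8 compounds and as higher with 3, and the call held in 3 of 12 alternatives. It was lost on the read counts (edgeR adjusted p = 0.219), and the difference was -44.4 in replicate 1 and -102.8 in replicate 2.

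PYR41 gave differences of -31.6 to 51.9 for the 6 sgRNAs and no call. The highest was sgXBP1 in SKBR3, with AUCs of 344.3 and 348.6 against 297.1 and 292.04 (difference 51.9 ± 14.9, adjusted p = 0.157). HCC-38 sgATF6 (27.4 ± 9.11, adjusted p = 0.269) and MDA-MB-231 sgATF4 (-31.6 ± 13.96, adjusted p = 0.490, from replicate 2) followed.

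For the IRE1 inhibitors the columns of interest were sgERN1, the guide against the gene of the target itself, and sgXBP1, the guide against the gene whose mRNA its RNase splices. Under APY29 sgERN1 differed from the median by -6.45 to 9.99 and sgXBP1 by -2.31 to 7.25 over the 5 lines, none of which passed (smallest adjusted p 0.893). In SKBR3, the line with the lowest AUC, sgERN1 cells had AUCs of 126.9 and 122.4 against medians of 105.8 and 123.6. The widest APY29 differences lay elsewhere, BT-20 sgHSF1 at -30.4 ± 13.2 (adjusted p = 0.481), ZR-75-1 sgATF6 at 30.4 ± 13.3 (adjusted p = 0.494) and MDA-MB-231 sgATF4 at 25.8 ± 8.38 (adjusted p = 0.250).

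Under STF083010 sgERN1 differed from the median by -2.35 to 12.9. The sgXBP1 differences ran from -41.2 ± 23.3 in MDA-MB-231 (adjusted p = 0.669) to 27.2 ± 13.3 in BT-20 (adjusted p = 0.581), and sgHSF2 in MDA-MB-231 was at -42.5 ± 23.3 (adjusted p = 0.648). MDA-MB-231 sgNT had AUCs of 867.5 and 829.3 and passed as higher (difference 532.7 ± 23.3, adjusted p = 3.05e-09), as did sgSLC35F2 with 566.7 and 516.1 (difference 225.7 ± 23.3, adjusted p = 0.000108). Against sgNT as reference, 7 tests of the 6 sgRNAs passed over all 7 compounds, and 6 of them were STF083010 in MDA-MB-231.

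On the AUC scale BrefeldinA gave the narrowest range for the 6 sgRNAs, -13.4 (MDA-MB-231 sgHSF2, adjusted p = 0.663) to 15.2 (ZR-75-1 sgATF6, adjusted p = 0.663), with 0 of 29 tests at an unadjusted p under 0.05. ZR-75-1 sgERN1 was at 12.4 ± 8.43. On the read counts, edgeR called MDA-MB-231 sgXBP1 higher (log2 0.41, adjusted p = 0.000264) and MDA-MB-231 sgATF4 lower (log2 -0.53, adjusted p = 0.0345) under BrefeldinA, both singled out after their values were seen. Their AUC differences were 10.9 and -3.05.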

How the data were processed

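The screen counted barcodes that mark the cell line and the sgRNA in pooled cells (QMAP-Seq). The authors converted base calls with bcl2fastq, matched both barcodes with up to 1 mismatch and deposited read counts per pair. From the counts of 5 spike-in standards of known cell number the authors interpolated cell numbers, and they deposited the ratio of each compound well to DMSO, printed here in percent. Recomputing the deposited ratios from the counts matched within 5.32e-05 on the log2 scale. The DMSO wells, which have no deposited ratio here, were recomputed the same way.

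Groups came from the compound, dose and replicate in the labels. The study describes the replicates as distinct biological samples. In the DMSO labels the plate number changed with the replicate and with the dose level, so plate cannot be told apart from them. The labels of the compound wells give no plate, and no label says whether cultures or days differed. The members and lists were chosen with earlier results of these data known. Named were the 7 compounds in each line, sgRNAs at an adjusted p under 0.05 and, per compound, up to 3 of the 6 sgRNAs with the largest difference of 1 sign in both replicates.

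Effects against DMSO and between compounds were tested with limma 3.58.1 (R 4.3.3) on log2 values of 1392 compound and 96 DMSO wells, and lines and sgRNAs on AUCs with weights of 0.5, 1, 1 and 0.5, two-sided with Benjamini-Hochberg adjustment and a threshold of 0.05. For lines the AUC was taken over the medians, for sgRNAs the median over the AUCs, whose own error is not in the SE. Read counts were tested with edgeR 4.0.16 and DESeq2 1.42.0 as alternatives. The fit against DMSO, the contrast between lines, the sgRNA fit against the median and edgeR (for APY29) were tested on simulated data first. DESeq2, the contrasts between compounds and the other alternative fits were not. Intervals are 95% intervals of the fit. For effects against DMSO and between compounds, SEs and intervals rest on an error shared by all wells of a line. At strong killing the spread may be larger than this error, so p-values and intervals at low cell numbers may be too narrow.

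Replicate numbers paired the cell lines, which share wells (correlation of deviations 0.277 to 0.837 over 10 pairs of lines), and not the wells of different compounds (-0.397 to 0.478 over 84 pairs).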

Additional observations from a re-analysis of the deposited data

Results flagged for a closer look

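The 8 differences between lines that passed the test are listed here because the effect of 1 compound differed between groups by a test of that difference. The AUC minus the mean of the other lines was -41.2 for NVPAUY922 in MDA-MB-231 and -27.6 for VER155008 in MDA-MB-231. For APY29 it was 98.1 in BT-20, -59.3 in SKBR3 and -40.8 in MDA-MB-231. For BrefeldinA it was -32.2 in SKBR3, -31.1 in MDA-MB-231 and 66.04 in HCC-38.

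Reads on 41 pairs of barcodes that were not made entered no comparison. Their share was at most 0.924% in the 96 DMSO wells. It was higher in 2 wells of NVPAUY922, 1.04% at 1 nM and 1.18% at 10 nM, both replicate 1. It was also higher in 4 wells of APY29, 2.40% at 10 nM (replicate 2), 1.22% and 0.985% at 100 nM (replicates 1 and 2) and 1.18% at 1000 nM (replicate 2).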

How the results depend on the processing

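The count below DMSO, 52, was 48 to 49 when 1 replicate was left out. With the replicate block it was 52. Where lines share wells and the numbers pair them, the block raised the lines above the others from 2 to 6, with all 8 reported calls kept. With sgNT in place of the median, 47 combinations were below DMSO, among them 2 of VER155008 (4 with the median) and 1 of PYR41 (0 with the median). Another 4 combinations were above DMSO, all STF083010 in MDA-MB-231. Likewise 3 lines were below the others, all under STF083010, and 0 of the 6 reported ones was among them (adjusted p 0.171 to 0.862). HCC-38 under BrefeldinA was also lost (0.106). With mean log2 in place of AUC, 5 lines were above. NVPAUY922 and Ganetespib differed in 2 tests on the percent scale, in 5 with reads over spike-in reads, and in 0 to 0 without 1 replicate.

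Of the 6 sgRNAs, 1 was lower and 0 higher. Against sgNT, 6 were lower and 1 higher with and without the replicate block, and the methods' t-test (p under 0.05 and a difference over 25) gave 7 lower and 12 higher (0 after Benjamini-Hochberg). None (0) was lower without the replicate block, at the highest dose only or with each sgRNA's own error. edgeR, with and without pairs under 50 reads, and DESeq2 gave 4 lower and 2 higher, and edgeR without 1 replicate gave 2 to 2 lower and 0 to 2 higher. Among the lower ones in edgeR were STF083010 MDA-MB-231 sgHSF2 (adjusted p = 0.0155) and sgXBP1 (adjusted p = 0.00325). The rest were NVPAUY922 HCC-38 sgHSF1 and BrefeldinA MDA-MB-231 sgATF4, and none of the higher ones was STF083010. The t-test counts were not split by compound. Mean log2 gave 1 higher.

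Directions reversed at the highest dose only for VER155008 MDA-MB-231 sgATF6 (0.941) and ZR-75-1 sgATF4 (-3.52), PYR41 HCC-38 sgATF6 (-1.31) and MDA-MB-231 sgATF4 (3.61), STF083010 BT-20 sgXBP1 (-0.157) and BrefeldinA ZR-75-1 sgATF6 (-2.38). The last reversed also with mean log2 (-0.39), edgeR (-0.34) and DESeq2 (-0.35). Against sgNT, STF083010 MDA-MB-231 sgSLC35F2 reversed to -307.0. The causes were not tested. Of 40 tested alternatives for the 8 lines that stood apart, 32 kept the call and 8 lost it. Of the 8 lost, 7 were with sgNT and 1 with the left-out ZR-75-1 pairs kept (BrefeldinA in MDA-MB-231, adjusted p = 0.0531). The replicate block, and leaving out compounds with an AUC over 550, could change only the error or the adjustment and not the differences themselves. The 16 values without 1 replicate had no test and kept their direction. Of 340 values of named sgRNAs, 13 reversed, 22 lost and 16 gained a call, and 10 moved by more than the spread between replicates.

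Each gene rested on 1 guide and each dose on 2 wells. The highest WP1130 dose left 21 reads in its thinnest pair.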
